A study of Rattus norvegicus with 9 samples.

Results

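The transcripts that fill a red cell were measured in bulk RNA from 9 rat livers through 7 genes: the haemoglobin chains Hba-a1 (alpha) and Hbb (beta), the erythroid haem synthesis enzyme Alas2, the red cell anion exchanger Slc4a1 (band 3), the erythroid transcription factors Klf1 and Gata1, and the erythropoietin receptor Epor. Each of the 7 was found by symbol among the 32883 genes of the deposited tables. They were chosen by name with earlier results of these libraries known, and the choice states no threshold and no comparison, so their levels are given as a description without p-values.

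The livers came from 3 normal rats (Normal), 3 rats with acute-on-chronic liver failure (ACLF) in the Empty group and 3 rats with ACLF in the UTOpiA group. The study used male Sprague-Dawley rats aged 8 to 11 weeks. Rats of both ACLF groups had undergone bile duct ligation for 21 days and received lipopolysaccharide (LPS) at 0.25 mg/kg, a bacterial product that triggers systemic inflammation. Beginning 1 h after LPS, their whole blood was pumped for 2 h through a heparinised circuit connected at the jugular veins. In the Empty group the circuit held neither cells nor granulocyte-monocyte apheresis (GMA) beads. In the UTOpiA group it held GMA beads and capsules of hepatocyte-like cells made from gene-edited induced pluripotent stem cells. ACLF livers were taken 24 h after LPS from rats that had survived to that time. Both ACLF groups therefore share ligation, LPS, heparin, catheters and circulation, and ACLF rats without a circuit are not analysed here. The labels describe the Normal livers only as those of normal rats. Blood was also drawn before and after the circulation, and whether livers were flushed of blood before freezing is not given in the sources used here.

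Erythropoiesis is the making of red cells from marrow progenitors. Erythropoietin acts on progenitors through Epor, and GATA1 and KLF1 then switch on globin, haem synthesis and membrane genes. The nucleus and with it GATA1 and KLF1 transcription are lost at the end of maturation, whereas reticulocytes, the youngest circulating red cells, still carry globin and Alas2 mRNA. Adult rodent blood is made mainly in marrow and spleen, while the fetal liver is an erythroid organ. A blood-filled liver can therefore hold red cell transcripts made elsewhere as well as any made within it.

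Promoter windows are shown for an alpha globin gene, a beta globin gene and Klf1, because Hba-a1 and Hbb had the highest TPM of the 7 genes in every liver and KLF1 is the factor that binds CACCC boxes in globin promoters. The windows hold the 250 bases before the start of the gene on the minus strand, 5′ to 3′, from RefSeq on build GRCr8. Capitals mark matches to 4 motifs searched on both strands. The GATA motif was TGATAA, also allowed with A as its first letter or G as its last. The box that KLF1 binds was searched as CACCC. A general promoter element was searched as CCAAT, and the TATA box as TATAAA.
Hba-a1 (chr10:15842581-15842830): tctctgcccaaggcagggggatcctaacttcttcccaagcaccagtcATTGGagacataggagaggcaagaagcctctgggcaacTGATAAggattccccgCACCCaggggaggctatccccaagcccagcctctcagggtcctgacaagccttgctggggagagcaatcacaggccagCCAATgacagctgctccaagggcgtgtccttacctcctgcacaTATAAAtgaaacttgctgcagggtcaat
Hbb (chr1:167663722-167663971): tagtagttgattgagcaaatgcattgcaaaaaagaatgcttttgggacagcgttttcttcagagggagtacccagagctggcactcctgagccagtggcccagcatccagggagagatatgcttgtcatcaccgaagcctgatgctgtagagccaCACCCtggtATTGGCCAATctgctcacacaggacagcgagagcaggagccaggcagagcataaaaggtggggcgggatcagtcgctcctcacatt
Klf1 (chr19:40158652-40158901): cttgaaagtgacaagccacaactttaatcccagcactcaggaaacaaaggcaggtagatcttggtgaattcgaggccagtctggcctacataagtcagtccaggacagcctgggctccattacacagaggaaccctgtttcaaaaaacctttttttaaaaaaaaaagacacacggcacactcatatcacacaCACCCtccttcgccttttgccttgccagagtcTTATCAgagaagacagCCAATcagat

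Each of the 3 windows held 1 CACCC match, which was present in 49.2% of all 33469 promoter windows of this length. A GATA match stood in the Hba-a1 and Klf1 windows and in 27% of all windows, whereas CCAAT was found in all 3 windows and in 34% of all. TATAAA was found in the Hba-a1 window and in 12.9% of all. In the Hbb window, 2 CCAAT matches on opposite strands lay side by side, 4 bases after the CACCC match. A match is a description of the letters and not of binding. The promoter table used here matched 6 of the 7 genes, and Slc4a1 is named only. Windows were matched by symbol. The Hba-a1 window carries another Entrez gene number than the deposited Hba-a1 row, so whether both are the same gene copy is uncertain.

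The deposited counts totalled 14241172 to 17321677 per library, and 3 counts in a library were taken as the limit of detection. All globin genes of the tables together took 0.00636% ± 0.00380 (SD, n = 3) of all counts in Normal livers, 0.116% ± 0.0269 in Empty livers and 0.0430% ± 0.0116 in UTOpiA livers. Without Normal replicate 1 the Normal share was 0.00417%. The lowest and highest livers held 0.00388% and 0.0107% in Normal, 0.0897% and 0.144% in Empty, and 0.0296% and 0.0502% in UTOpiA. The 3 groups did not overlap, and the widest 95% Wilson interval of a single library spanned 0.00367 percentage points, which covers counting error only. Even in the Empty group, globin transcripts were thus a minor component of liver RNA. The 7 measured hepatocyte markers were present in every library, summing to 167355 to 183957 TPM (a level scaled by gene length and by library total) in Normal, 42211 to 79059.7 in Empty and 49144 to 75643 in UTOpiA.

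**Figure D1:**
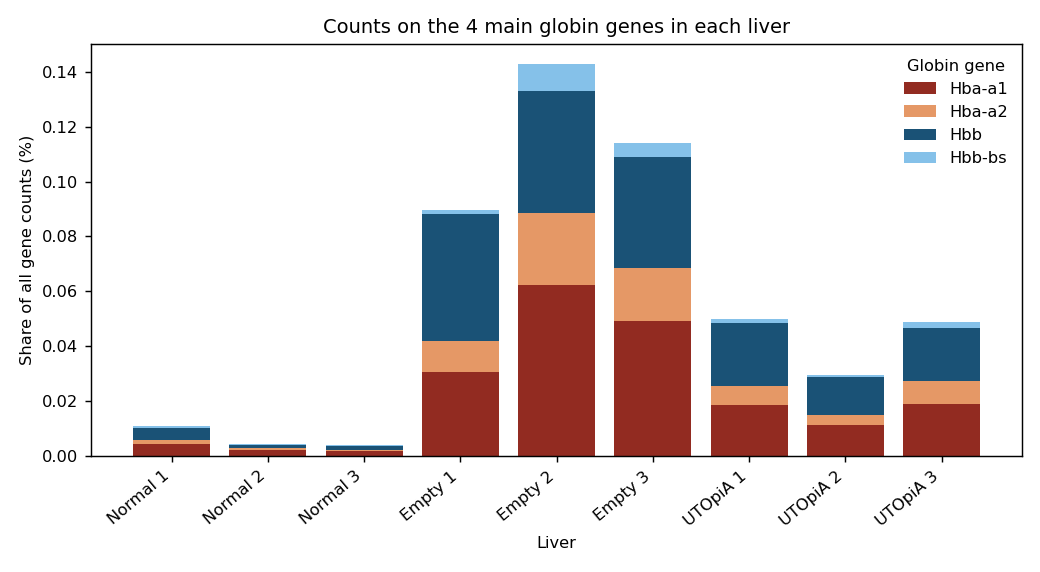
Share of all gene counts in percent (vertical axis, from 0) that fell on Hba-a1, Hba-a2, Hbb and Hbb-bs in each liver (horizontal axis), stacked by gene. Bars of the 3 Empty livers are the tallest, those of the UTOpiA livers lie between, and among Normal livers replicate 1 is the highest, with 0.0107% on all globin genes.

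Alpha globin was higher in both ACLF groups than in Normal livers and was highest in the Empty group. The TPM of Hba-a1 was 140.0, 63.2 and 53.0 in the Normal livers, 952, 1995 and 1481 in the Empty livers and 575, 351 and 565 in the UTOpiA livers. Every ACLF liver was above every Normal liver, and every UTOpiA liver was below every Empty liver. Group means were 85.4 ± 47.6, 1476 ± 522 and 497 ± 127 (SD, n = 3 each), so the mean of the Empty group was 17.3 times that of Normal and 2.97 times that of UTOpiA. The deposited table places Hba-a1 on chromosome 10 from 15602794 to 15603649 on the minus strand, in positions of the build that the sample labels name as rn6.

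Hbb, the beta chain that pairs with alpha globin, had the same order of groups. Its TPM was 119, 36.7 and 38.3 in Normal, 1215, 1197 and 1030.4 in Empty, and 599, 367 and 487 in UTOpiA. None of the 3 groups overlapped another, and the Empty livers lay close together (1148 ± 102, SD) beside UTOpiA livers at 484 ± 116. The Hbb locus, on chromosome 1 from 168971274 to 168972725 on the minus strand, gave 206 to 631 counts per Normal liver and 6393 to 7995 per Empty liver. Normal replicate 1 held about 3 times the beta globin of the other Normal livers, and without it the log2 fold change of the Empty group against Normal was 4.42 in place of 3.63 and that of the UTOpiA group 3.41 in place of 2.62.

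The enzyme Alas2, which catalyses the rate-limiting step of haem synthesis in erythroid cells, was far lower but moved with globin. Its counts were 9, 7 and 3 in Normal livers, 105, 212 and 92 in Empty livers and 63, 53 and 76 in UTOpiA livers. In TPM these were 0.643, 0.471 and 0.199, then 6.02, 13.2 and 5.60, then 4.29, 3.28 and 4.71. ACLF livers of both groups lay above all Normal livers. UTOpiA livers lay below Empty livers in TPM but overlapped them in library-scaled counts (CPM, counts relative to the library total after TMM scaling), at 2.68 to 5.72 against 4.42 to 11.4. Between the groups, the edgeR log2 fold change was 3.72 with a standard error (SE) of 0.55 for Empty against Normal, 2.95 (SE 0.55) for UTOpiA against Normal and -0.77 (SE 0.45) for UTOpiA against Empty.

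Slc4a1, the chloride-bicarbonate exchanger that is the most abundant protein of the red cell membrane, went the other way. Its counts were 197, 229 and 165 in Normal, 89, 185 and 75 in Empty and 151, 74 and 127 in UTOpiA. The corresponding TPM were 5.09, 5.57 and 3.96, then 1.85, 4.15 and 1.65, then 3.72, 1.66 and 2.85. On TPM, 1 Empty liver (replicate 2) reached into the Normal range, whereas on CPM both ACLF groups lay below all Normal livers. The log2 fold change was -1.44 (SE 0.44) for Empty and -1.10 (SE 0.44) for UTOpiA, each against Normal, and 0.34 (SE 0.44) between the ACLF groups. Thus Slc4a1 and the globins moved in opposite directions between Normal and ACLF livers, and which cells its reads came from was not tested.

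Klf1, the activator of adult beta globin, was near the limit of detection. It was counted 4, 0 and 3 times in Normal livers, 15, 2 and 8 times in Empty livers and 9, 4 and 5 times in UTOpiA livers. All groups overlapped, with mean TPM of 0.187 ± 0.169, 0.566 ± 0.425 and 0.451 ± 0.225 (SD, n = 3 each). Epor, the receptor that keeps erythroid progenitors alive, was as sparse. It had 5, 3 and 1 counts in Normal, 7, 1 and 8 in Empty and 5, 5 and 8 in UTOpiA, and again all groups overlapped. Gata1, the master regulator of erythroid and megakaryocyte genes, was at 0 counts in all 9 libraries, which at 3 counts per library allows up to 2.11e-05% of the counts in the shallowest one. Klf1 and Epor did not pass the filter on low counts. With no such filter, their log2 fold changes in Empty against Normal were 1.09 (SE 1.01) and 0.10 (SE 0.91), and in UTOpiA against Normal 0.95 (SE 1.03) and 0.61 (SE 0.91). No difference in Klf1, Epor or Gata1 was detected at these counts, and why Gata1 had none was not tested.

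**Figure D2:**
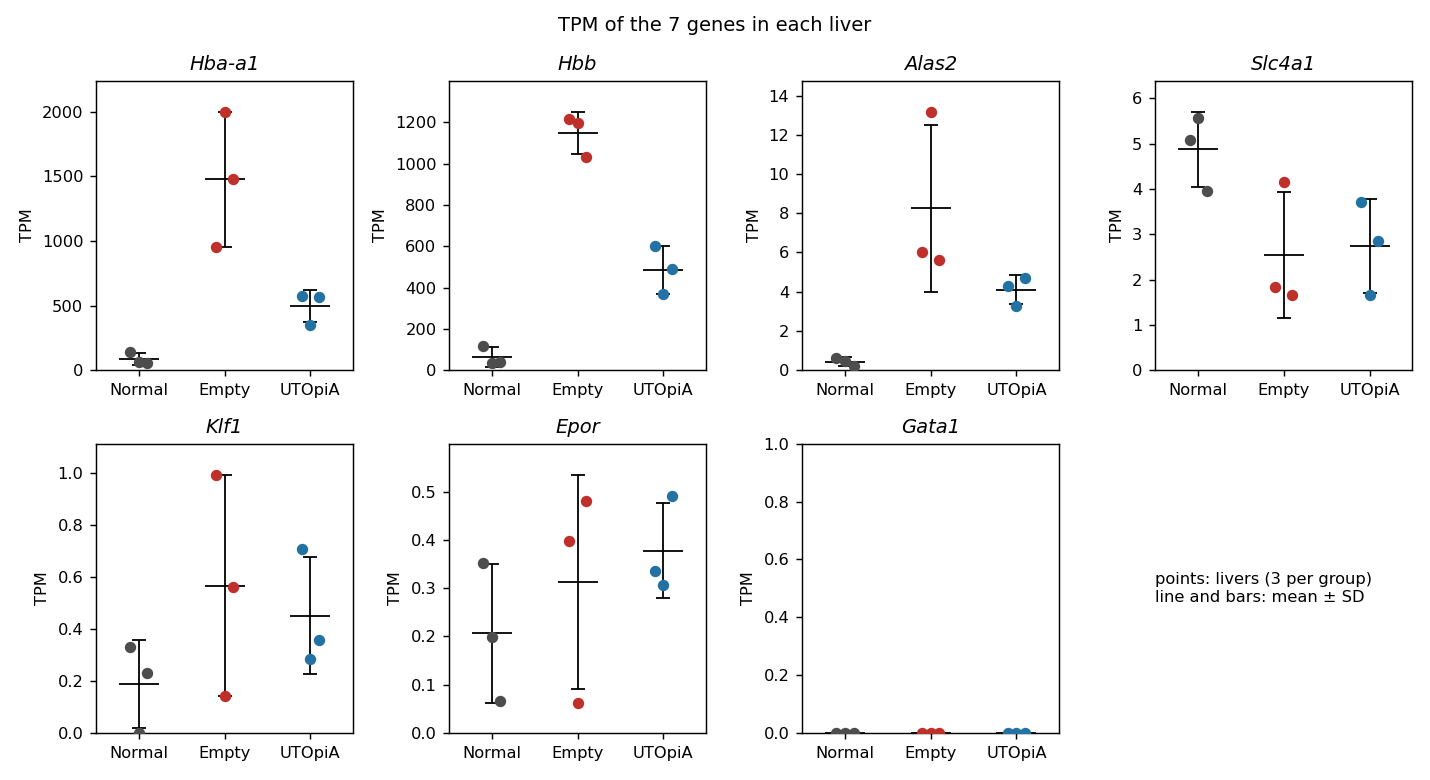
TPM (vertical axes, each from 0) of the 7 genes in the Normal, Empty and UTOpiA livers, with 1 point per liver and lines for the mean ± SD of 3 livers. Hba-a1 and Hbb separate the groups without overlap, Slc4a1 is highest in Normal livers, and Gata1 is at 0 throughout.

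Of the 7 genes, 4 (Hba-a1, Hbb, Alas2 and Slc4a1) passed the filter on low counts and entered the edgeR quasi-likelihood fit over 14089 genes. A gene was called when it passed both 0.05 on the adjusted p (Benjamini-Hochberg) and a 2-fold change. No call is given for these 4, because they were chosen with such results known. In Empty against Normal the log2 fold changes of Hba-a1, Hbb, Alas2 and Slc4a1 were 3.58, 3.63, 3.72 and -1.44. On log2(TPM + 1) with limma that of Slc4a1 was -0.78, which is under the 2-fold threshold. In edgeR fits without 1 library it ranged from -2.00 (Empty replicate 2) to -1.18 (Empty replicate 3). Among all genes tested, 20.7% were called higher and 11.1% lower in that comparison. In UTOpiA against Normal the log2 fold changes were 2.28, 2.62, 2.95 and -1.10, and 18.2% of all genes were called higher and 6.81% lower. On CPM, Hba-a1, Hbb and Alas2 lay wholly above Normal in both ACLF groups, as did 32.4% of all genes in Empty and 30.8% in UTOpiA. Slc4a1 lay wholly below Normal in both, as did 28.8% of all genes in Empty and 26.1% in UTOpiA. These shares are given beside the values of the members and nothing is read from them, because the genes were chosen with such results known.

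Between the ACLF groups, edgeR called 0% of genes higher and 0% lower, with 1456 of 14089 genes at an unadjusted p under 0.05. DESeq2 called 53 genes higher and 71 lower in UTOpiA on the same counts. With edgeR, 26 were higher and 21 lower without Empty replicate 2, and 32 higher and 17 lower without UTOpiA replicate 2. The log2 fold change of Hba-a1 was -1.30 (SE 0.45) and that of Hbb -1.01 (SE 0.46) in UTOpiA against Empty. On CPM, Hba-a1 and Hbb lay wholly below Empty, as did 5.97% of all genes, while 6.15% of all genes lay wholly above. The 2 comparisons with Normal share the same 3 Normal livers.

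TPM and the fit place the middle gene differently. The median difference in log2 TPM over the 14089 genes was 0.54 for Empty against Normal, 0.35 for UTOpiA against Normal and -0.20 for UTOpiA against Empty, whereas the median log2 fold change of the fit was 0.04, 0.05 and 0.00. Relative to these shifts, Hba-a1, Hbb and Alas2 stood above the median gene in both ACLF groups on either scale, and Slc4a1 stood below it. Because the samples are bulk tissue, more red cells and more RNA per red cell cannot be told apart.

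Other globin genes were described in the same way. Hba-a2, a second alpha globin gene, had TPM of 47.1, 22.2 and 13.5 in Normal, 355, 838 and 588 in Empty and 219, 115 and 257 in UTOpiA. It was called higher in both ACLF groups against Normal, with a log2 fold change of 3.90 in Empty (SE 0.60, edgeR adjusted p = 0.0011) and a 6.07-fold rise in UTOpiA (SE of the log2 fold change 0.58, adjusted p = 0.0080), and stood at a log2 fold change of -1.30 (SE 0.54, adjusted p = 0.46) in UTOpiA against Empty. Without Normal replicate 1 its log2 fold change was 4.53 in Empty and 3.23 in UTOpiA. The promoter windows of Hba-a1 and Hba-a2 were identical at 241 of 250 positions (96.4%), and their transcripts are near-identical copies. Reads shared by both are not kept when only uniquely mapped reads are counted, and the deposited table gives both rows the same Entrez gene number, so the split between them is uncertain. Counts of Hba-a1 were 2.20 to 3.91 times those of Hba-a2 in every liver.

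Hbb-bs, another beta globin gene, was more variable, with TPM of 5.72, 5.13 and 4.46 in Normal, 21.6, 133 and 62.4 in Empty and 17.8, 10.8 and 28.6 in UTOpiA. It was called higher in Empty against Normal (log2 fold change 3.30, SE 0.70, edgeR adjusted p = 0.0051) but not in UTOpiA against Normal (1.69, SE 0.68, adjusted p = 0.079). DESeq2, limma on log2(TPM + 0.1) and fits of the compared groups alone or without Empty replicate 1 or 2 did call it in UTOpiA, and its log2 fold change in Empty was 2.47 without Empty replicate 2. Its share of beta globin TPM ranged from 1.75% to 12.3% over the 9 livers, and the promoter windows of Hbb and Hbb-bs were identical at only 58 of 250 ungapped positions. Hba-a3 was not called, with 1, 78 and 2 counts in Empty livers and 12, 14 and 39 in UTOpiA livers (log2 fold change of UTOpiA against Empty 0.02, SE 1.31). It was called higher in UTOpiA against Normal in the fit of those groups alone and in that without Empty replicate 2. Summed alpha TPM was 1.50 to 2.04 times summed beta TPM in Normal, 1.06 to 2.15 times in Empty and 1.24 to 1.61 times in UTOpiA, and these ranges overlapped.

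Embryonic globins were scarce. Hbe1, an embryonic beta-like chain, was at 0 counts in all Normal livers, at 5, 0 and 4 in Empty livers and at 29, 13 and 7 in UTOpiA livers. Against a floor of 3 counts per Normal library, the mean CPM of the UTOpiA group was at least 4.09-fold higher. UTOpiA livers were all above Empty livers for Hbe1, a gene named here after its values were seen. It failed the count filter, and edgeR without that filter and limma on TPM called it higher in UTOpiA against Normal. Hbz and Hbe2, which encode embryonic zeta-type and epsilon-type chains, and Hbg1 were at 0 in all 9 libraries.

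Levels within a liver separated Alas2 from Slc4a1. Per 1000 TPM of globin, Alas2 stood at 1.82 to 3.70 TPM in Normal, 1.77 to 3.15 in Empty and 3.03 to 3.88 in UTOpiA. These ranges overlapped over livers whose globin differed more than 10-fold, and the Normal values rest on 3 to 9 Alas2 counts per liver. Slc4a1 stood at 16.2 to 43.8 TPM per 1000 TPM of globin in Normal, 0.522 to 0.993 in Empty and 1.96 to 2.63 in UTOpiA. The group ranges did not overlap, Empty being the lowest and Normal the highest. Klf1 was counted 0 to 50.8 times per 10000 globin counts in Normal, 0.850 to 9.65 times in Empty and 6.59 to 12.4 times in UTOpiA, and Epor 16.9 to 44.8, 0.425 to 4.50 and 6.87 to 10.5 times. For Gata1, the floor of 3 counts allowed up to 1.93 counts per 10000 globin counts in any Empty library, a far tighter limit than the 50.8 in Normal livers, where globin itself was low. These ratios share the globin level as denominator and are given without a test.

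**Figure D3:**
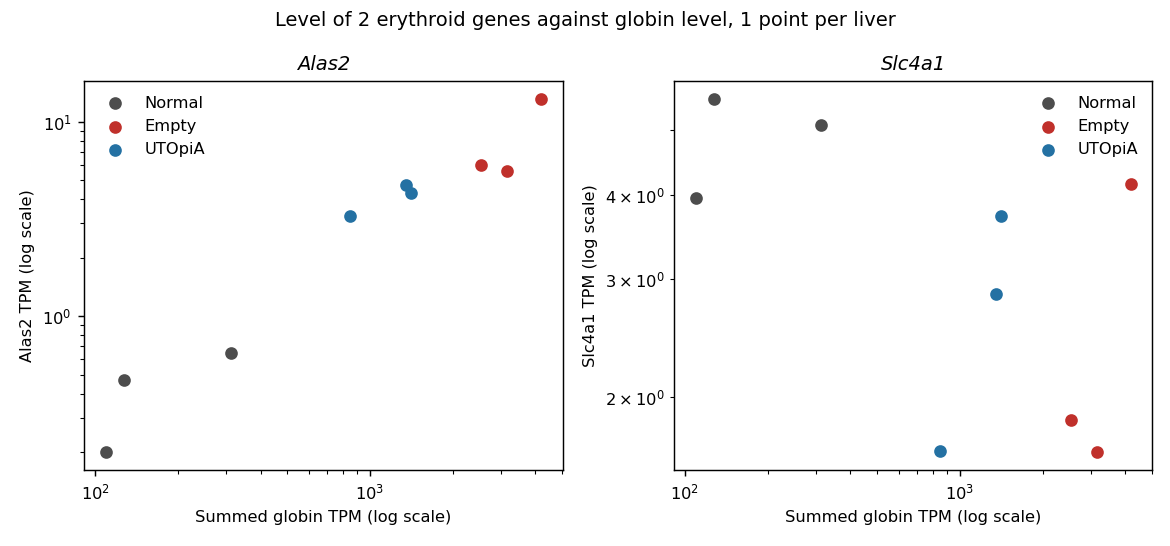
TPM of Alas2 (left) and Slc4a1 (right) against the summed TPM of alpha and beta globin, with 1 point per liver, coloured by group, on log axes. Alas2 climbs with globin from Normal through UTOpiA to Empty livers, whereas Slc4a1 is highest in Normal livers and Empty replicate 2.

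Other erythroid genes were taken from a written list, which like the 7 genes was chosen with earlier results of these libraries known. The adjusted p-values given for genes of this and the marker lists carry that limit. The list of 97 symbols for globins, red cell membrane, haem synthesis, erythroid regulators, red cell enzymes and erythropoietin signalling, none of them among the 7 genes, matched 79 rows, of which 56 were tested. In Empty against Normal, 13 were called higher and 14 lower, with a median log2 fold change of -0.28 against 0.04 over all genes. In UTOpiA against Normal, 12 were called higher and 12 lower (median -0.01). As shares of the 56 these were 23.2% higher and 25% lower in Empty, where all genes gave 20.7% and 11.1%, and 21.4% of each kind in UTOpiA, where all genes gave 18.2% and 6.81%. On log2(TPM + 1) with limma, which does not apply the TMM scaling, the split was 14 higher and 5 lower for Empty and 13 higher and 6 lower for UTOpiA. Leaving out any single library kept 10 of the 13 higher and 11 of the 14 lower calls in Empty, and 9 of the 12 higher and 10 of the 12 lower calls in UTOpiA. Between the ACLF groups edgeR called 0 of the 56, with 8 at an unadjusted p under 0.05, and DESeq2 called 1, Tfrc.

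**Figure D4:**
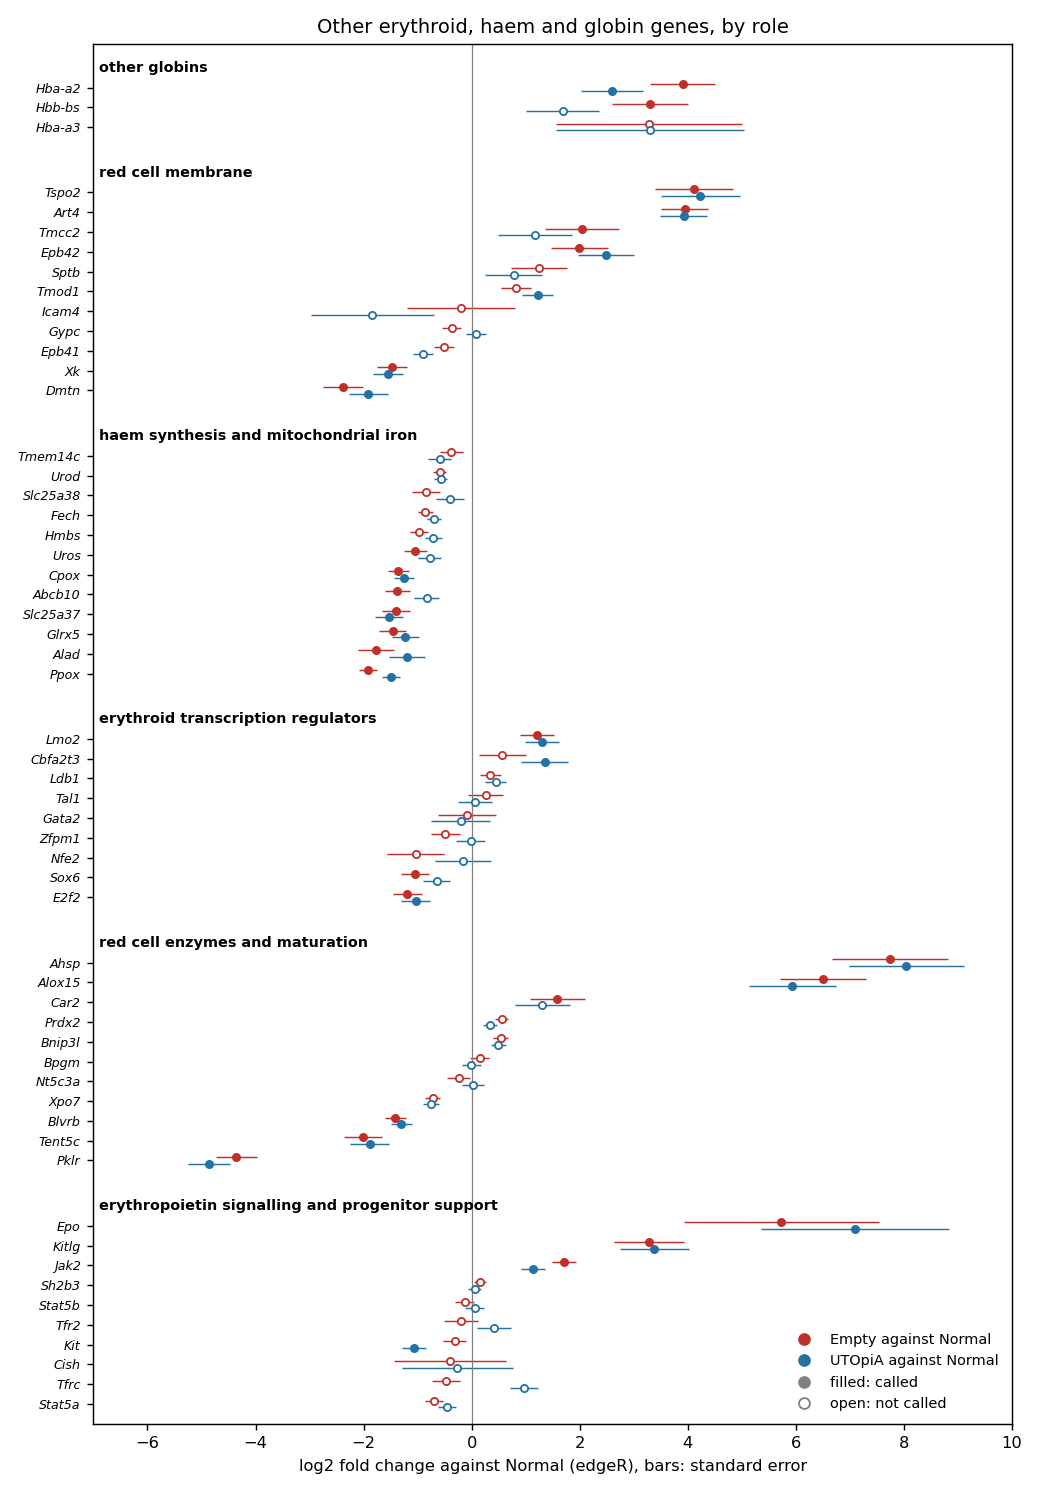
log2 fold change (horizontal axis, edgeR, bars are standard errors) of the 56 tested genes of the list in Empty and in UTOpiA against Normal, grouped by role. Filled points were called. All 12 haem synthesis and mitochondrial iron genes lie left of 0 in this fit (on mean TPM, Tmem14c was higher in Empty than in Normal), while Ahsp, Alox15 and Epo lie farthest right.

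Of 12 haem synthesis and mitochondrial iron genes outside Alas2, 0 were called higher and 7 lower in Empty against Normal, where 20.7% and 11.1% of all genes were. In UTOpiA against Normal, 0 of the 12 were called higher and 5 lower, where 18.2% and 6.81% of all genes were. Their summed TPM was 629.9 to 676 in Normal, 428 to 503 in Empty and 392 to 501 in UTOpiA, without overlap between Normal and either ACLF group. On log2(TPM + 1) with limma, however, only Alad and Ppox of the 12 were called lower in Empty, and only Ppox and Slc25a37 in UTOpiA. Ppox, the enzyme that oxidises protoporphyrinogen, fell from 40.3 ± 3.08 TPM in Normal to 15.4 ± 2.03 in Empty and 17.6 ± 2.52 in UTOpiA (log2 fold change -1.92 in Empty, SE 0.17, edgeR adjusted p = 7.4e-05). Alad, which joins aminolaevulinate into porphobilinogen, fell from 148 ± 13.0 to 62.6 ± 18.9 TPM in Empty (-1.77, SE 0.33, adjusted p = 0.0024). These enzymes serve every cell type that makes haem, hepatocytes included. Alas1, the form of the Alas2 enzyme used by hepatocytes and other non-erythroid cells, was also called lower in Empty (-1.42, SE 0.34, adjusted p = 0.0079), at 119 ± 33.6 TPM against 226 ± 62.6 in Normal. In the same livers 5 of 7 tested hepatocyte markers were called lower, where 11.1% of all genes were, with log2 fold changes of -3.08 for Alb and -2.99 for Ttr (-3.68 and -3.69 without Empty replicate 2). Their part in the lower haem synthesis genes was not tested. Alas2 and Alas1 thus moved in opposite directions.

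Of 11 tested red cell enzymes and maturation genes, 3 were called higher and 3 lower in Empty against Normal, against 20.7% and 11.1% of all genes. Ahsp, the chaperone of free alpha globin, was at 0 counts in all Normal livers, at 18, 38 and 42 in Empty livers and at 45, 25 and 27 in UTOpiA livers. Against the floor of 3 counts per Normal library its mean CPM was at least 6.64-fold higher in Empty (edgeR adjusted p = 0.0011) and at least 8.28-fold higher in UTOpiA (adjusted p = 0.0012). Its log2 fold change of UTOpiA against Empty was 0.31 (SE 0.49, adjusted p = 0.87), whereas those of Hba-a1 and Hbb were below 0. Per 10000 globin counts, Ahsp was counted 11.6 to 23.3 times in Empty and 35.6 to 61.8 times in UTOpiA livers, without overlap. Alox15, a lipoxygenase that reticulocytes use to break down mitochondria and that macrophages and eosinophils also express, had 6, 0 and 1 counts in Normal, 250, 533 and 289 in Empty and 131, 170 and 271 in UTOpiA (log2 fold change in Empty 6.50, SE 0.80, adjusted p = 0.00036). Without Normal replicate 1 that value was 8.58, and without Normal replicate 2 it was 5.92. Car2, a carbonic anhydrase found in many cell types, was called higher in Empty (1.59, SE 0.51, adjusted p = 0.031), a call lost without the count filter, in the fit of those groups alone, and without Normal replicate 1 or 2, UTOpiA replicate 2 or Empty replicate 2, where the log2 fold change was 0.79. Pklr, the pyruvate kinase of red cells and hepatocytes, fell from 261 ± 45.3 TPM to 18.1 ± 6.23 in Empty (-4.36, SE 0.37, adjusted p = 7.3e-05). Tent5c was also called lower (-2.01, SE 0.35, adjusted p = 0.0016).

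Of 11 tested red cell membrane genes, 4 were called higher and 2 lower in Empty, and the same counts in UTOpiA, against Normal. Among all genes these shares were 20.7% and 11.1% in Empty and 18.2% and 6.81% in UTOpiA. Tspo2, an erythroid cholesterol-binding protein, had 2, 0 and 4 counts in Normal, 62, 64 and 50 in Empty and 24, 97 and 44 in UTOpiA (log2 fold change in Empty 4.11, SE 0.73, edgeR adjusted p = 0.0017, and 5.03 without Normal replicate 3). Art4, which carries the Dombrock blood group, rose from 0.572 ± 0.168 TPM to 12.6 ± 6.16 in Empty and 11.3 ± 4.63 in UTOpiA (3.94, SE 0.43, adjusted p = 0.00019 in Empty). Epb42, which anchors band 3 to the cytoskeleton, was called higher in Empty (2.00, SE 0.52, adjusted p = 0.011) and in UTOpiA (2.49, SE 0.52, adjusted p = 0.0053), from 2 to 7 counts per Normal liver to 24 to 36 and 19 to 42. It was called in neither group by any of the 3 limma fits on TPM. Tmcc2 was called higher in Empty (2.05, SE 0.68, adjusted p = 0.034), where its counts were 55, 375 and 84, but lost that call without Empty replicate 2 (log2 fold change 0.67) and also without the count filter, any 1 of the Normal livers or UTOpiA replicate 2, in the fit of those groups alone and with limma on log2(TPM + 1) without a filter. Dmtn, which bundles actin beneath the membrane, and Xk, a membrane transporter-like protein, were called lower (-2.38, SE 0.36, adjusted p = 0.00082 and -1.48, SE 0.27, adjusted p = 0.0020 in Empty). In Empty the limma fits on TPM called Dmtn lower and not Xk.

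Some erythroid genes were too sparse to pass the count filter. Of the 79 rows, 23 failed the filter, 5 of them at 0 in all libraries, and 12 of the other 18 (66.7%) were at 0 in all Normal livers, as were 44.6% of the 6175 genes of the tables that failed the filter and had a count. Summed over these 18 genes, counts were 12, 4 and 15 in Normal, 69, 153 and 87 in Empty and 72, 51 and 60 in UTOpiA. Ank1 and Rhd, a cytoskeletal anchor and a Rh blood group protein, had 0 counts in Normal and 9 to 15 and 4 to 12 counts in Empty livers. In UTOpiA livers they had 1 to 4 and 3 to 5. Car1, a carbonic anhydrase of red cells, went the other way, with 20 counts summed over Normal, 6 over Empty and 1 over UTOpiA livers. These 3 genes were named after their values were seen. Without the count filter, edgeR called Ank1, Rhd, Add2 and Ermap higher in Empty against Normal, and Rhd higher and Car1 lower in UTOpiA against Normal.

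Of 9 tested regulators of erythroid transcription, 1 was called higher and 2 lower in Empty against Normal, and 2 higher and 1 lower in UTOpiA against Normal. For all genes the shares were 20.7% and 11.1%, and 18.2% and 6.81%. Lmo2, a bridging factor of erythroid and endothelial cells, rose from 3.86 ± 0.499 TPM to 12.9 ± 5.04 in Empty and 12.3 ± 4.88 in UTOpiA (log2 fold change 1.21, SE 0.32, edgeR adjusted p = 0.011 in Empty). E2f2 and Sox6 were called lower in Empty (-1.19, SE 0.27 and -1.04, SE 0.26, adjusted p = 0.0060 and 0.0085), calls lost without Normal replicate 3 for E2f2 and without Normal replicate 1 or 2 for Sox6, and for both in the 3 limma fits on TPM. In UTOpiA the lower gene was E2f2, lost without Normal replicate 3 or UTOpiA replicate 2, and of the 2 higher genes Cbfa2t3 was lost without Normal replicate 1 or 3 or UTOpiA replicate 1 or 2. Tal1, a partner of GATA1 that endothelial cells also use, gave 25 to 37 counts in Normal, 39 to 68 in Empty and 28 to 49 in UTOpiA, and was not called. Gfi1b, an erythroid and megakaryocyte repressor, had at most 2 counts in any library.

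Of 10 tested genes of erythropoietin signalling and progenitor support, 3 were called higher and 0 lower in Empty against Normal, with a median log2 fold change of -0.17, and 3 higher and 1 lower in UTOpiA against Normal (median 0.24). Among all genes 20.7% were higher and 11.1% lower in Empty, and 18.2% and 6.81% in UTOpiA. Epo, the hormone itself, was counted 0, 0 and 1 times in Normal, 73, 13 and 24 times in Empty and 15, 21 and 168 times in UTOpiA. It was called higher in Empty (log2 fold change 5.73, SE 1.81, edgeR adjusted p = 0.027) and in UTOpiA (7.09, SE 1.74, adjusted p = 0.012). All Normal counts were under the limit of 3, so the size of these fitted changes is uncertain. The call in Empty was lost without the count filter, without any 1 of the 3 Normal livers or without Empty replicate 1, and that in UTOpiA without Normal replicate 3. Limma on log2(TPM + 1) did not call it in Empty with or without a filter, nor in UTOpiA without one. Its log2 fold change was 4.71 in Empty without Empty replicate 1 and 4.86 in UTOpiA without UTOpiA replicate 3, and 7.95 and 9.31 without Normal replicate 3. Kitlg, the stem cell factor that supports progenitors and mast cells, rose from 0.349 ± 0.263 TPM to 4.88 ± 2.74 in Empty and 4.83 ± 2.90 in UTOpiA (3.28, SE 0.64, adjusted p = 0.0031 in Empty, and 3.96 without Normal replicate 2). Jak2, the kinase bound to Epor and to other cytokine receptors, rose from 4.64 ± 0.901 to 21.7 ± 4.16 TPM in Empty (1.71, SE 0.23, adjusted p = 0.00042). Kit, the receptor for Kitlg, was called lower by edgeR and not by limma on TPM in UTOpiA against Normal (-1.07, SE 0.22, adjusted p = 0.0050), with -0.32 (SE 0.22) in Empty and -0.75 (SE 0.22, adjusted p = 0.35) between the ACLF groups.

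Tfrc, the transferrin receptor through which erythroid precursors and many other cells take up iron, had the smallest unadjusted p of the list between the ACLF groups (0.00029). Its counts were 2445, 2616 and 1929 in Normal, 2809, 2897 and 2436 in Empty and 6624, 4945 and 6199 in UTOpiA. Every UTOpiA liver was above every Empty and Normal liver, at 139 ± 26.4 TPM against 59.6 ± 5.82 and 58.3 ± 9.98. The log2 fold change of UTOpiA against Empty was 1.46 (SE 0.26), which edgeR did not call (adjusted p = 0.18) and DESeq2 did. Without UTOpiA replicate 2, edgeR called it too. It was named after its values were seen. Globin was lower in the same UTOpiA livers than in Empty livers.

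Genes that handle free haemoglobin and haem were also described. Of 11 tested, 6 were called higher and 1 lower in Empty against Normal, and 3 higher and 1 lower in UTOpiA against Normal. The lower gene in both was Alas1, the synthesis enzyme described above, and its call in UTOpiA was lost without Normal replicate 1 or 2, Empty replicate 1 or UTOpiA replicate 2. Cd163, Slc48a1 and Spic lost their calls in Empty without Empty replicate 1. All genes gave 20.7% and 11.1% in Empty and 18.2% and 6.81% in UTOpiA. Hmox1, which breaks down haem, rose from 23.6 ± 2.79 TPM to 356 ± 51.0 in Empty and 256 ± 165 in UTOpiA (log2 fold change 3.40, SE 0.54, edgeR adjusted p = 0.0011 in Empty). In UTOpiA its log2 fold change was 3.26, and 2.31 without UTOpiA replicate 3. Hpx, the plasma haem binder made by hepatocytes and an acute-phase protein, rose in both (2.09, SE 0.42, adjusted p = 0.0033 and 2.58, SE 0.43, adjusted p = 0.0018). Cd163, the macrophage receptor for haemoglobin bound to haptoglobin, rose in Empty (1.58, SE 0.42, adjusted p = 0.013), a call lost without Empty replicate 1, where its log2 fold change was 0.93. Spic, a factor of macrophages that recycle red cells, was called higher in Empty (2.80, SE 0.88, adjusted p = 0.026) but lost that call without Normal replicate 3 or Empty replicate 1 or 3, and its log2 fold change ranged from 2.21 without Normal replicate 2 to 3.57 without Normal replicate 1. None of these genes was called between the ACLF groups. The summed TPM of the list did not follow globin between them, at 62987 to 91962 in Empty and 77011 to 98503 in UTOpiA. Hmox1 was only a small part of these sums, so they do not describe it.

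Markers of other blood cells also differed between Normal and ACLF livers. All 5 tested neutrophil markers of 8 listed were called higher in both ACLF groups, where 20.7% and 18.2% of all genes were, and the summed TPM of the list was 2.35 to 5.92 in Normal, 189 to 1108 in Empty and 175 to 507 in UTOpiA. Cxcr2, a chemokine receptor of circulating neutrophils, was at 0 counts in Normal livers and at least 13.7-fold higher in Empty and 5.48-fold higher in UTOpiA on CPM. Its fitted log2 fold change in Empty, which depends on the prior count, went from 8.77 to 7.84 without Empty replicate 3. Granulocyte precursor markers were low, summing to 0 TPM in all Normal livers, 0 to 1.10 in Empty and 0.0368 to 0.373 in UTOpiA. Elane was counted 0, 3 and 9 times in Empty and 0, 0 and 1 times in UTOpiA, Mpo reached at most 3 counts, and Ms4a3 and Prss57 were at 0 in all libraries. Platelet markers summed to 7.41 to 9.05 TPM in Normal, 19.0 to 38.5 in Empty and 13.2 to 29.1 in UTOpiA, with Pf4 called higher in Empty (log2 fold change 3.16, SE 0.53, edgeR adjusted p = 0.0013) and Itga2b called lower, a call lost without Normal replicate 1 or Empty replicate 1. Gp1bb was at 0 in all libraries. B and T cell markers summed to 1.62 to 2.56 TPM in Normal, 6.17 to 12.0 in Empty and 5.89 to 10.2 in UTOpiA, with 3 of 6 tested called higher in each ACLF group. In UTOpiA, Cd2 and Cd3e both lost that call without UTOpiA replicate 1 and Cd3d kept it, and in Empty Cd5 lost it without Normal replicate 2 or 3 or Empty replicate 3.

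Mast cell markers, which share Kit and Gata2 with early progenitors, summed to 6.33 to 10.1 TPM in Normal, 4.93 to 8.61 in Empty and 2.25 to 4.55 in UTOpiA, with 1 of 3 tested called higher (Tpsb2) and 1 lower (Hdc) in each ACLF group. Shares over all genes were 20.7% higher and 11.1% lower in Empty, and 18.2% and 6.81% in UTOpiA. Eosinophil markers summed to less than 1 TPM in every liver, at most 0.866, and none was tested. Endothelial markers summed to 85.1 to 93.2, 92.6 to 142 and 85.6 to 105 TPM. In each ACLF group 2 of 7 were called higher (28.6%) and 1 lower (14.3%), beside the shares over all genes just given. Both higher calls in UTOpiA, Tie1 and Vwf, were lost without Normal replicate 3 or UTOpiA replicate 2, and Cdh5 in Empty was lost without Empty replicate 1 or 2. Of 9 dividing cell markers, 7 were called higher in each ACLF group (20.7% and 18.2% of all genes were), and Birc5 and Rrm2 were not. Their summed TPM was 5.01 to 15.2 in Normal, 25.3 to 57.9 in Empty and 23.8 to 59.2 in UTOpiA. Leaving out 1 library ended the call of Aurkb, Bub1, Cdk1 and Plk1 in both ACLF groups and of Top2a in UTOpiA, in each case including Normal replicate 2. The part of blood, precursors or dividing cells in the globin difference was not tested. Erythroid cells made in the liver and red cells that arrived with the blood cannot be told apart in these libraries.

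The genes most like Hbb and Alas2 in profile were sought among 12990 other genes with a symbol and a mean of at least 1 CPM. Likeness was the mean absolute difference of log2 CPM over the 9 libraries, each gene centred on its own mean. The 5 nearest to Hbb were Plaur, Il2ra, Ttll10, Hk2 and Hba-a2, at differences of 0.36 to 0.40. The 5 nearest to Alas2 were Hba-a2, Csf2rb, Bcl3, Hk2 and Sema3e, at 0.33 to 0.40. Hba-a2 was therefore in both lists, beside genes that are not specific to red cells, such as the urokinase receptor gene Plaur, which rose from 0.515 to 18.8 TPM in Empty. The largest part of each profile is the step from Normal to ACLF livers, which many genes share. No such list was made for Gata1, which had no counts.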

How the data were processed

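Bulk poly(A)-selected liver RNA was sequenced from 9 rats, 3 per group, grouped by sample title. The authors deposited raw counts per gene of uniquely mapped reads (HISAT2, featureCounts) and TPM, scaled by gene length to a fixed sum per library. The labels name rn6, NEBNext kits and Trimmomatic, whereas the paper names a mouse build, an MGI kit and Cutadapt. The tables list rat Ensembl genes, and the strand setting is not given in the sources used here. Unique counting loses reads shared by near-identical globin copies, which lowers their counts.

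Counts of the 14089 genes kept by filterByExpr were TMM-normalised and fitted with edgeR 4.0.16 in R 4.3.3 (robust quasi-likelihood test, two-sided, 9 libraries, 1 mean per group). Genes were called where the Benjamini-Hochberg adjusted p was below 0.05 and the fold change exceeded 2. SE is the absolute log2 fold change over the square root of F. Labels call the livers biological replicates, and even the closest pair of replicates differed beyond counting noise (chi-square over degrees of freedom 18.8). Members and lists were chosen with earlier results of these data known. The genes named are the 7 members, per list up to 4 higher and 2 lower calls of largest change in Empty against Normal with a group mean of 0.5 TPM or more, and the 5 nearest profiles. Others are marked in the text or were named as examples at low counts.

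Alternatives were DESeq2 1.42.0, limma 3.58.1 on log2 TPM with a pseudocount of 1 (with or without a minimum mean of 1 TPM) or 0.1, RLE factors, library sizes without globin, no count filter, no fold threshold, fits of the compared groups alone, a replicate block and each library left out. Of the listed symbols, 18 erythroid and 4 marker symbols matched no row. Some details of the cells in the UTOpiA circuit and 1 marker gene are not reported here.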

Additional observations from a re-analysis of the deposited data

How the results depend on the processing

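Counts of called erythroid genes other than the 7 were recomputed under each alternative. Against the 14 lower calls of Empty against Normal and the 12 of UTOpiA against Normal, limma on log2(TPM + 1), filtered at a mean of 1 TPM, gave 5 and 6, on log2(TPM + 0.1) 5 and 7, and on log2(TPM + 1) without a filter 5 and 6. The median gene was also higher in ACLF livers on the TPM scale, and the cause of the lower counts was not tested. Without a fold threshold 19 were lower in UTOpiA against Normal. Between the ACLF groups DESeq2 called 1 higher (Tfrc), as did edgeR without UTOpiA replicate 2, where edgeR on all libraries called 0. Leaving out each library in turn gave 10 to 13 higher and 13 to 16 lower for Empty against Normal, 10 to 16 higher and 10 to 13 lower for UTOpiA against Normal, and 0 to 1 higher and 0 lower between the ACLF groups. The other alternatives stayed within 1.5 times these counts.

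The replicate numbers did not pair the livers: 0 of 9 same-number pairs had a correlation of deviations over 0.1 (range -0.18 to 0.06). With the replicate block, 11 genes were higher and 14 lower in Empty against Normal, 12 higher and 11 lower in UTOpiA against Normal, and 0 of either kind between the ACLF groups. The calls of Car2 and Tmcc2 in Empty and of E2f2 in UTOpiA were not made with the block.

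Of 225 recomputed values of the members and the globin share, 213 moved by less than 1 SD between livers of a group (on log2 CPM, averaged over the groups compared, or on the globin share) and 12 by more, with 0 changes of direction. Alas2 moved most, to 2.61 in Empty and 1.83 in UTOpiA against Normal on log2(TPM + 1), a scale that compresses low values. Slc4a1 in Empty ranged from -2.00 without Empty replicate 2 to -0.78 on log2(TPM + 1). Klf1 and Epor had at most 15 and 8 counts in any library and Gata1 had 0. The 5 nearest profiles of Hbb and of Alas2 were the same genes, 5 of 5, with library sizes computed without globin.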
